A study of Mus musculus with 7 samples.

Results

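The genes described here are 9 transcription factors that set or mark the identity of thymic epithelial cells (TECs): Fezf2, Foxn1, Trp63, Pax1, Pax9, Hoxa3, Irf8, Ehf and Elf3. They were taken by name out of 20839 genes listed in 7 single-cell RNA-seq libraries of mouse thymus, and each of the 9 was listed in every library. Their levels and detection were measured in 8220 of 8453 cells, those without a UMI (a counted molecule) of Ptprc, the gene of the leukocyte marker CD45. The cells were compared by 5 gates on the deposited natural log scale. These were Aire above 1.5, Ccl21a above 4, Trpm5 above 0, Krt10 above 1.5, and a cortical gate of at least 2 of the 3 genes Psmb11, Ackr4 and Prss16 above 0.

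All libraries came from C57BL/6 mice, each from 3 pooled thymi sorted as EpCAM+ CD45- cells and run on the 10x Genomics platform. The Aire trace library came from mice of 6 weeks carrying Aire-CreERT2 and R26-CAG-Stopfl-zsGreen. They were given 2 mg tamoxifen every other day over 10 days, so that cells with an active Aire promoter during dosing, and their progeny, carry ZsGreen. The other 6 libraries came from mice given 3 injections of 100 ug of an isotype control or of an antibody to RANKL, the ligand of the receptor RANK. The isotype control libraries were made 2 and 10 weeks after treatment, at an age of 4 and 12 weeks. The anti-RANKL libraries were made at weeks 2, 4, 6 and 10, at an age of 4, 6, 8 and 12 weeks. There was 1 library per treated time point, so that treated and control levels are set side by side without a test, and weeks 4 and 6 have no control of their own age.

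The thymus is built from endoderm of the third pharyngeal pouch, where HOXA3, PAX1 and PAX9 act early and FOXN1 then drives the differentiation of both cortical and medullary TECs. Cortical TECs select developing T cells for MHC recognition, while medullary TECs (mTECs) display self-antigens, many of them under the control of AIRE or FEZF2, and purge self-reactive T cells. Medullary TECs are themselves diverse and include Ccl21a-high cells that attract thymocytes, Aire-expressing cells that depend on RANK signaling, keratinised cells and tuft cells that resemble chemosensory cells of the gut.

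Depth differed between libraries, with a median of 4299.5 to 16809 UMIs per cell and the lowest medians in the Week 6 and Week 4 anti-RANKL libraries. Shares of cells with a UMI are therefore given after each cell was thinned to 2000 UMIs, which left out 172 shallower cells. Levels are means over cells of UMIs per 1000000 UMIs of the cell, written as CPM. Intervals of 95% on shares are exact binomial ones and cover counting error only. Those on log2 differences are normal ones from the standard error (SE) of the fit by limma. Of the 8403 barcodes, 50 occurred in 2 libraries. Exactly 1 gate was passed by 5280 cells, more than 1 by 844 and none by 2096, and all gate values below come from cells that passed 1 gate. The Aire gate then held 1572 cells, the Ccl21a gate 2825, the Trpm5 gate 309, the cortical gate 448 and the Krt10 gate 126.

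The gates were checked against marker genes other than those that define them. Summed markers of Aire-expressing mTECs were at 12434 to 18008 CPM in the Aire gate, 7133 to 10029 in the Ccl21a gate and 8139 to 11148 in the cortical gate. Summed markers of Ccl21a-high mTECs were at 6357 to 10369 in the Ccl21a gate and 1974 to 3281 in the Aire gate. In the Krt10 gate they were at 3331 to 13796, with a median of 9585 against 8453 in the Ccl21a gate, so that they do not set these gates apart. Summed tuft markers were at 2245 to 4704 in the Trpm5 gate and at 260 or below in the Ccl21a gate. Summed cortical markers were at 6229 to 13405 in the cortical gate against 2153 to 3710 in the Ccl21a gate. The Krt10 gate was uneven. Its summed keratinocyte markers (Krt1, Ivl, Lor, Sbsn, Krtdap, Spink5 and Dmkn) were at 118 in the Week 6 anti-RANKL library, 1462 in the Week 10 isotype control and 2227 in the Week 4 anti-RANKL library, but at 7456 to 18452 in the other 4 libraries. In the Week 4 and Week 6 anti-RANKL libraries this gate also carried summed cortical markers at 2886 and 4572, against 1236 at most elsewhere. The Krt10 gate is therefore called by its gate, and each test on it is given with and without these 2 libraries. The Aire gate held 18 cells in the Week 4 anti-RANKL library and 44 in the Week 2 anti-RANKL library, so that levels there rest on few cells.

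The gates were compared in 5 pairs, with 1 fit across 9001 genes by limma on log2(mean CPM + 10), with library as a block and Benjamini-Hochberg adjustment at 0.05. Of the 9 genes, 8 were tested; Hoxa3 lay under the filter of a mean of 10 CPM. From the Ccl21a gate to the Aire gate, 3 of the 8 were higher (Fezf2, Irf8 and Foxn1), beside 12.6% of all genes tested, and 3 were lower (Trp63, Pax1 and Pax9), beside 15.1%. From the Aire gate to the Trpm5 gate, 2 were higher (Ehf and Elf3), beside 20.1%, and 3 were lower (Fezf2, Irf8 and Foxn1), beside 13.2%. From the Aire gate to the Krt10 gate, 3 were higher (Trp63, Pax9 and Elf3), beside 14.8%, and 3 were lower (Fezf2, Irf8 and Foxn1), beside 16.7%. Without the Week 4 and Week 6 anti-RANKL libraries the 3 higher in the Krt10 gate were Trp63, Ehf and Elf3, beside 19.8%, and the 3 lower were Fezf2, Irf8 and Foxn1, beside 19.0%.

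The cortical gate was compared with both medullary gates. Against the Ccl21a gate, 1 of the 8 was higher (Pax1), beside 3.29% of all genes, and 0 of the 8 were lower, beside 3.23%. At an unadjusted limma p under 0.05 the counts were 2 higher and 1 lower. Against the Aire gate, 3 were higher (Trp63, Pax1 and Pax9), beside 19.9%, and 3 were lower (Fezf2, Irf8 and Ehf), beside 13.2%. The median log2 difference of the 8 genes, beside that of all genes, was 0.04 against -0.12 for Aire minus Ccl21a, -0.23 against 0.11 for Trpm5 minus Aire, 0.60 against -0.01 for Krt10 minus Aire (0.36 against 0.00 without the Week 4 and Week 6 anti-RANKL libraries), 0.11 against 0.07 for cortical minus Ccl21a and -0.42 against 0.17 for cortical minus Aire. Of the 5 pairs, 4 share the profiles of the Aire gate, so that the values of a gene in them are not independent of each other. A UMI count is not divided by gene length here, and levels are compared between gates and libraries, not between genes.

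**Figure D1:**
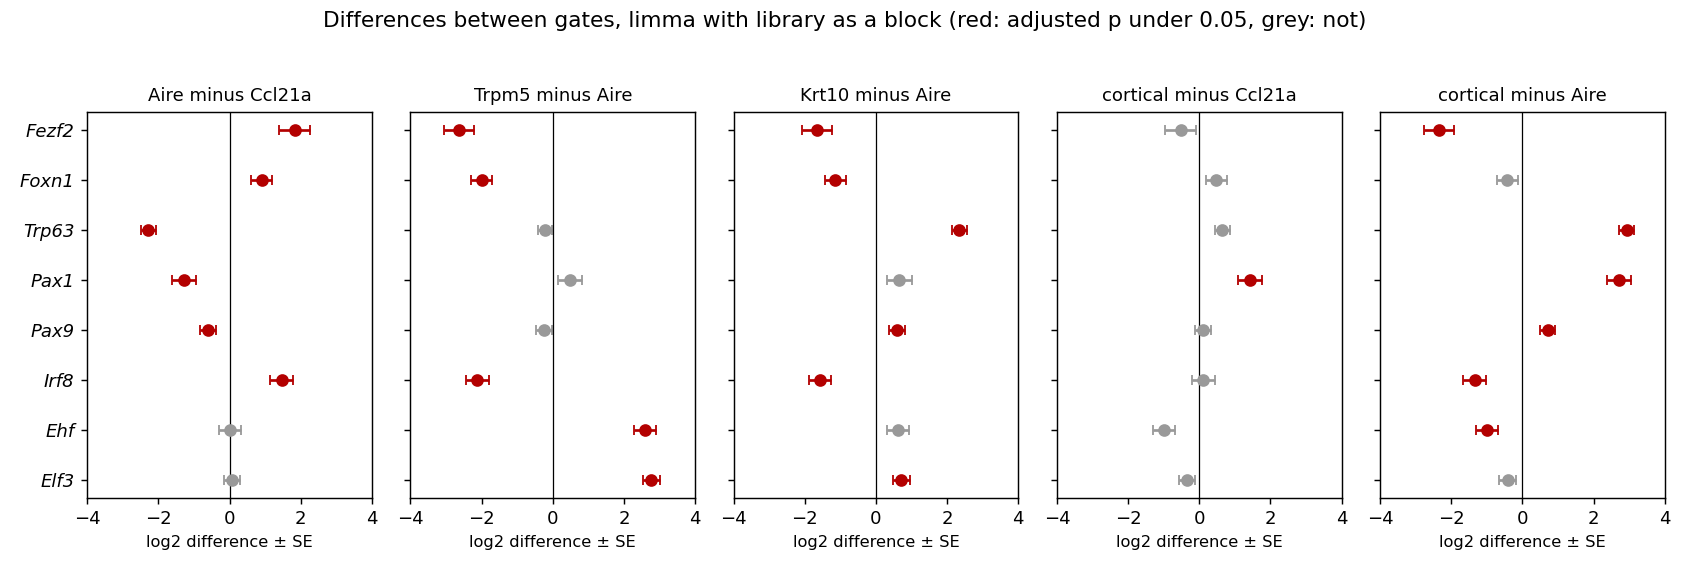
Log2 difference (points, x axis) with its standard error (bars) of the 8 tested genes (y axis) in the 5 comparisons between gates, with red points for an adjusted p under 0.05 and grey points for the rest. Fezf2, Irf8 and Foxn1 lie to the right in Aire minus Ccl21a, with 1.83, 1.46 and 0.91, and Ehf and Elf3 lie to the right in Trpm5 minus Aire, with 2.60 and 2.77.

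Fezf2, a zinc finger factor that drives self-antigen genes in mTECs separately from AIRE, lies on chromosome 14 (chr14:12342094-12348189, minus strand, GENCODE vM21 annotation of GRCm38, the mm10 build of the files). Its RefSeq promoter window, 250 bases before to 50 after the annotated start, is printed because Fezf2 had its highest level in the Aire gate, whose cells depend on RANK, a receptor that signals through NF-kappaB. The windows come from RefSeq annotation of GRCm38.p6 and were found for 7 of the 9 genes, with Ehf and Trp63 not among them. Capitals mark matches on either strand to the loose NF-kappaB-like pattern GGGNNNNNCC, neighbouring matches running together where they overlap. The pattern was present in 50.8% of all 32851 promoter windows, so that a match is a description and not a binding site.
Fezf2 chr14:12345816-12346115 minus strand: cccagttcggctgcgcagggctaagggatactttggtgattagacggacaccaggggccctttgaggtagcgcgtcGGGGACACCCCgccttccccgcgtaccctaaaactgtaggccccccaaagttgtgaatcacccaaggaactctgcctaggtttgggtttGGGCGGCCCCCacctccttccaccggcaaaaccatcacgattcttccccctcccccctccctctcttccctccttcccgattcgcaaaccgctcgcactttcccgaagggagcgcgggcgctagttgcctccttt
The window held 4 matches and had a GC content of 61.3%, against a median of 52.7% over all windows.

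In the Aire gate, the level of Fezf2 was 500.0 CPM in the Aire trace library, 692 and 834 in the isotype controls of weeks 2 and 10, and 889, 837, 562 and 725 in the anti-RANKL libraries of weeks 2, 4, 6 and 10. In the Ccl21a gate it was 126, 230, 200.0, 242, 213, 180 and 174 in the same order. Every library had more Fezf2 in its Aire gate than any library had in its Ccl21a gate. The difference was 1.83 on the log2 scale (SE 0.43, limma adjusted p = 0.00172, 3.55-fold, higher in 7 of 7 libraries). At equal depth, 1024 of 1569 Aire gate cells had a Fezf2 UMI, 65.3% (62.8 to 67.6), against 28.7% in the Ccl21a gate, 14.8% in the Trpm5 gate and 14.3% in the cortical gate. Before thinning, the median share over the libraries was 91.2% in the Aire gate. With levels taken from the thinned cells the difference was 1.75, with a limma adjusted p of 0.0558, and over 17 alternative fits the adjusted p by limma ran from 4.58e-10 to 0.0558.

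Fezf2 UMIs were also found outside the Aire gate. As a measure of free RNA, 0 of 37 immune cells, those with Ptprc above 0 and no Epcam UMI, held a Fezf2 UMI, which leaves a share of up to 9.49% (exact upper bound), at a median of 5674 UMIs per cell before thinning. An earlier choice of 69 cells with Ptprc and a Cd3 gene above 0 held Fezf2 in 20.3%, and the Epcam criterion was added after seeing this. The shares of the Trpm5 and cortical gates lie above the first background and below the second, so that they are not read as expression here. The interval of the second (11.6 to 31.7) also holds the share of the Ccl21a gate, while that of the Aire gate lies above both. In the Trpm5 gate the level ran from 50.7 to 186 CPM with a median of 113, and was lower than in the Aire gate by 2.64 on the log2 scale (SE 0.43, limma adjusted p = 2.26e-05, 7 of 7 libraries). In the cortical gate it ran from 65.0 to 229 with a median of 140, a log2 difference from the Aire gate of -2.35 (SE 0.43, limma adjusted p = 9.79e-05). Cortical and Ccl21a gates overlapped and did not pass the test (log2 difference -0.52, 95% interval -1.36 to 0.31, limma adjusted p = 0.684). This difference depended on the cells and libraries taken. It was -0.59 without the Week 4 and Week 6 anti-RANKL libraries (limma adjusted p = 0.0306), -1.75 with stricter gates (limma adjusted p = 2.93e-08) and 0.31 with cells of more than 1 gate kept (limma adjusted p = 0.536), and over 17 alternatives the limma adjusted p reached 1.

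The Krt10 gate had the widest spread of Fezf2. Its level was 254 in the Aire trace library, 553 and 824 in the isotype controls, 278 and 475 in the anti-RANKL libraries of weeks 2 and 10, and 34.9 and 28.5 in those of weeks 4 and 6. The last 2 libraries were far below the rest and are those whose Krt10 gate carried cortical markers. The difference from the Aire gate was -1.67 over all libraries (SE 0.43, limma adjusted p = 0.00363) and -0.71 without the 2 libraries (SE 0.17, limma adjusted p = 0.00209, within 2.95e-06 to 0.0225 over 17 alternatives).

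Irf8, an interferon regulatory factor best known for the development of dendritic cells, macrophages and B cells, lies on chromosome 8 (chr8:120736358-120756694, plus strand). Its first RefSeq promoter window is shown beside that of Fezf2 because both genes had their highest level in the Aire gate.
Irf8 chr8:120736108-120736407 plus strand: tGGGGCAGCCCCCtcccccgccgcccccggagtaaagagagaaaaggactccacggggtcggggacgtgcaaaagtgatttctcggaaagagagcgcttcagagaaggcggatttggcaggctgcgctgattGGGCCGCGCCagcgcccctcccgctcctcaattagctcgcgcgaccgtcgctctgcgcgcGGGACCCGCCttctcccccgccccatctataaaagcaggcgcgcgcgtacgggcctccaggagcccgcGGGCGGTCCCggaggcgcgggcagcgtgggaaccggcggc
It held 6 matches to the same pattern and had a GC content of 70.0%. A further RefSeq start of Irf8 (chr8:120738389-120738688) held 0 matches.

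The level of Irf8 in the Aire gate was 290 CPM in the Aire trace library, 273 and 307 in the isotype controls and 361, 230, 234 and 306 in the anti-RANKL libraries of weeks 2, 4, 6 and 10. In the Ccl21a gate it ran from 71.4 to 114 with a median of 98.1, and in the cortical gate from 72.2 to 134 with a median of 110. The Aire gate lay above both in all libraries, with no overlap. The difference from the Ccl21a gate was 1.46 on the log2 scale (SE 0.31, limma adjusted p = 0.000561, 2.76-fold, 7 of 7 libraries), and the cortical gate was lower than the Aire gate by 1.34 (SE 0.31, limma adjusted p = 0.00116, 7 of 7 libraries). At equal depth an Irf8 UMI was found in 641 of 1569 Aire gate cells, 40.9% (38.4 to 43.3), and in 16.3% of Ccl21a gate cells, where the medians over libraries before thinning were 84.4% and 40.6%.

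The Trpm5 gate had the lowest median of Irf8, 71.3 in a range of 22.2 to 84.2, a log2 difference from the Aire gate of -2.12 (SE 0.31, limma adjusted p = 3.22e-06, 7 of 7 libraries). The Krt10 gate was lower than the Aire gate by 1.58 (SE 0.31, limma adjusted p = 0.00022, 6 of 7 libraries), and by 1.26 without the Week 4 and Week 6 anti-RANKL libraries (SE 0.29, limma adjusted p = 0.00142). The exception was the Week 10 isotype control, where 10 Krt10 gate cells averaged 448.

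Because Irf8 is an immune gene, immune markers were measured in the same cells. Among Aire gate cells before thinning, 68.1% to 95.5% held an Irf8 UMI, while Itgax was found in at most 0.952% and Siglech in at most 1.90% of the cells of any library. Other immune genes were found more often there. Lyz2 was found in 33.3% to 75.6% of Aire gate cells against 2.92% to 23.2% of Ccl21a gate cells, and its level was higher by 3.83 on the log2 scale (SE 0.45, limma adjusted p = 2.05e-07). Fcer1g was found in 11.1% to 43.8% against 0.507% to 3.62%, and was higher by 2.56 (SE 0.29, limma adjusted p = 1.15e-08). The B cell receptor gene Cd79b was found in 0% to 31.8% against 1.01% to 7.97%, and was higher by 0.73 (SE 0.24, limma adjusted p = 0.0192). Flt3 was found in 0% to 11.4% and Tyrobp in 2.27% to 9.54% of Aire gate cells. Cst3 went the other way, with a level of 318 to 655 CPM in the Aire gate and 770 to 958 in the Ccl21a gate, lower by 0.88 on the log2 scale (SE 0.19, limma adjusted p = 0.000436). Epcam was found in 77.8% to 97.8% of Aire gate cells. The summed myeloid and dendritic markers were at 821 to 1621 CPM in the Aire gate and 808 to 991 in the Ccl21a gate. Their part in the difference of Irf8 was not tested. The immune cells held Irf8 in 11 of 37, 29.7% (15.9 to 47.0), at a median level of 143 CPM over libraries. They therefore give no background of free RNA for this immune gene.

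Foxn1, the forkhead factor without which no functional thymic epithelium forms (the gene altered in nude mice), lies on chromosome 11 (chr11:78357577-78386558, minus strand). Its RefSeq promoter window is shown as the third gene with its highest level in the Aire gate.
Foxn1 chr11:78386559-78386858 minus strand: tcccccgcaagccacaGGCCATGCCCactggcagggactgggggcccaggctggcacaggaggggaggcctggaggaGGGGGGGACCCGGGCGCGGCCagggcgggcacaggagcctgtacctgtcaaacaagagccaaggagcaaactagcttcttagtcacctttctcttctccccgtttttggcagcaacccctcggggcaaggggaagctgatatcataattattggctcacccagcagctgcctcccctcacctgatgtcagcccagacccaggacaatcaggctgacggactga
The window held 4 matches, some of them overlapping, at a GC content of 62.7%.

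The level of Foxn1 in the Aire gate was 72.6 in the Aire trace library, 72.1 and 80.3 in the isotype controls and 87.3, 78.6, 87.8 and 63.0 in the anti-RANKL libraries, and in the Ccl21a gate 32.2, then 28.7 and 23.5, then 50.9, 53.9, 48.7 and 27.3. Each library was higher in its Aire gate, by 0.91 on the log2 scale (SE 0.30, limma adjusted p = 0.0209, 1.87-fold). The call was lost without the Aire trace library (adjusted p = 0.0535 by limma), without the Week 10 isotype control (0.0598), with a pseudocount of 1 (0.156) and with thinned levels (0.102), while the log2 difference stayed between 0.82 and 1.07 in these fits. Over all 17 alternatives the limma adjusted p ran from 0.00132 to 0.156.

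The cortical gate had Foxn1 at 36.4 to 94.7 with a median of 50.9, overlapping the Aire gate (log2 difference from the Aire gate -0.42, 95% interval -1.01 to 0.17, limma adjusted p = 0.299). In the Trpm5 gate it was at 4.46 to 20.2 with a median of 12.9, below all values of the Aire, Ccl21a and cortical gates, and lower than in the Aire gate by 2.00 (SE 0.30, limma adjusted p = 1.75e-06, 3.99-fold). Detection at equal depth was 13.4% (11.7 to 15.2) in the Aire gate, 10.3% in the cortical gate, 7.62% in the Ccl21a gate and 3.02% in the Trpm5 gate, beside 1 of 37 immune cells. The interval of that background reaches 14.2%, so that none of these shares can be told from it. Levels before thinning in the immune cells ran from 0 to 22.1 CPM with a median of 0, on 2 to 13 cells per library. The Aire, Ccl21a and cortical gates lay above that range and the Trpm5 gate within it. In cells with Ptprc and a Cd3 gene the level ran from 13.3 to 60.4, below the Aire gate but overlapping the Ccl21a and cortical gates. Before thinning the median share over libraries was 55.6% in the Aire gate and 11.4% in the Trpm5 gate. The Krt10 gate was lower than the Aire gate by 1.14 (SE 0.30, limma adjusted p = 0.00329) and by 0.76 without the Week 4 and Week 6 anti-RANKL libraries (SE 0.30, limma adjusted p = 0.0441), and the call was lost with thinned levels (0.217, the highest of 17 alternatives) and with stricter gates (0.111).

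**Figure D2:**
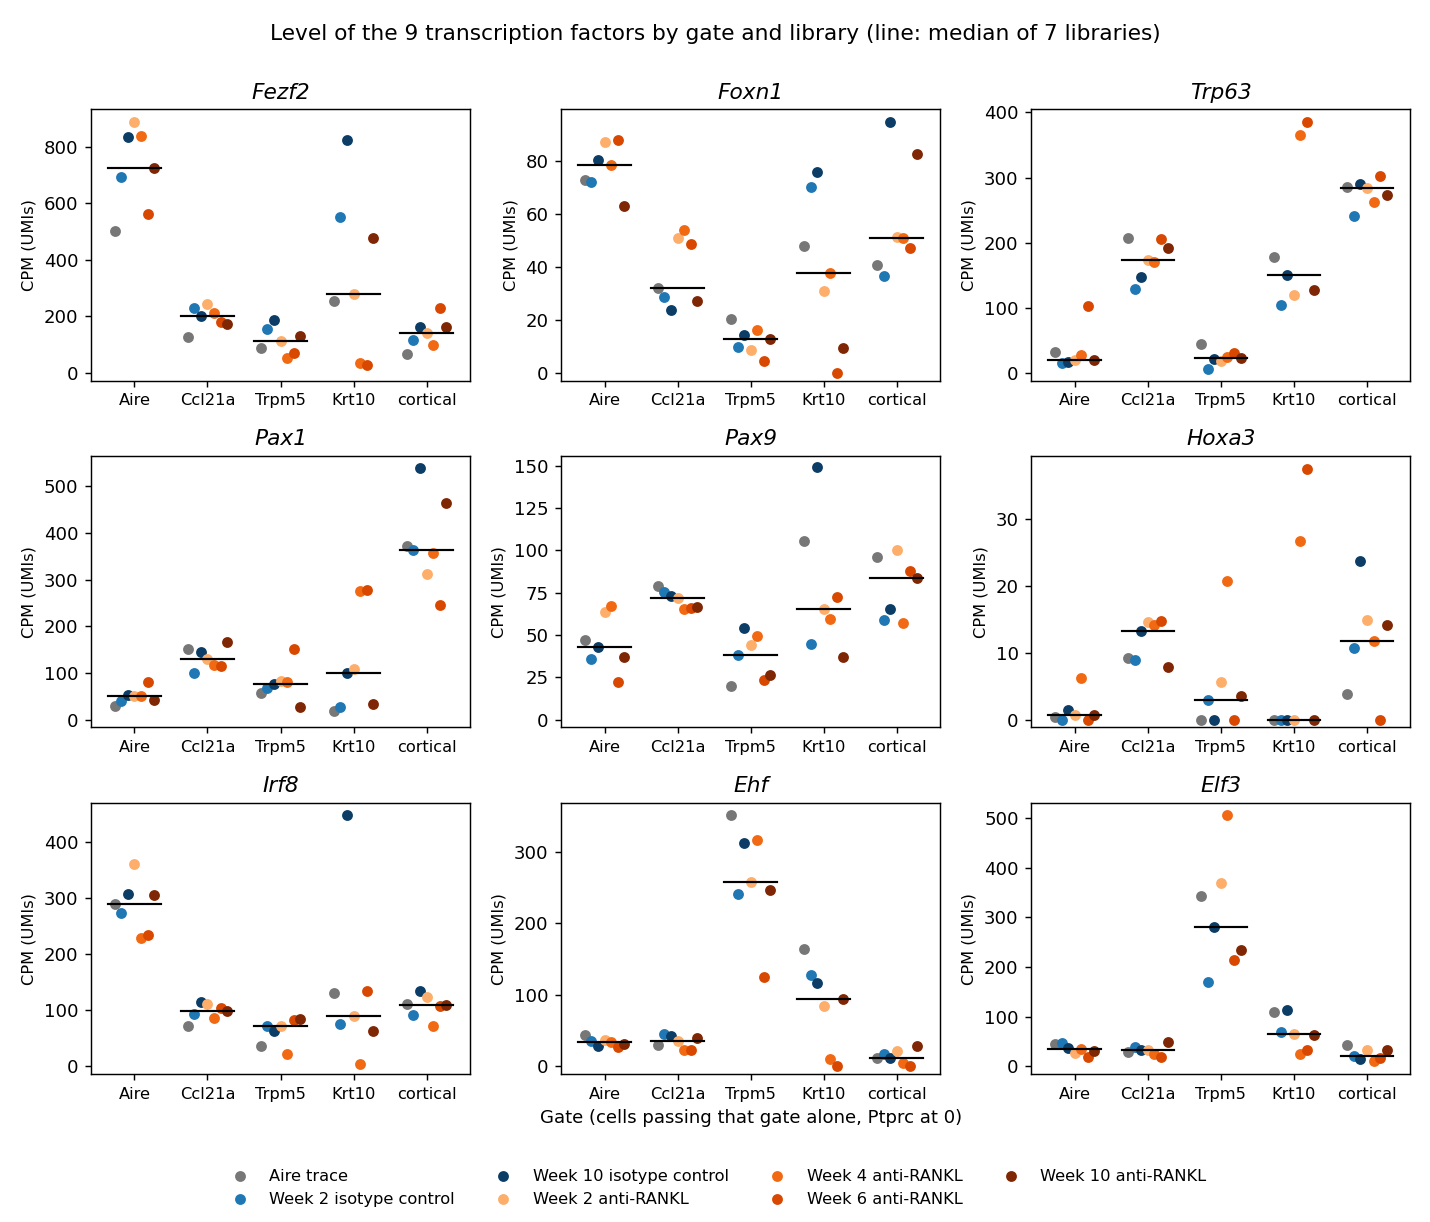
Level in CPM (y axis) of each of the 9 genes in the 5 gates (x axis), with 1 point per library and a line at the median of the 7 libraries. Fezf2 and Irf8 have their highest medians in the Aire gate (725 and 290), Trp63 and Pax1 in the cortical gate (285 and 363), and Ehf and Elf3 in the Trpm5 gate (257 and 281).

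Trp63 encodes p63, a relative of p53 that maintains the proliferative layer of stratified epithelia (chr16:25683763-25892102, plus strand). It was low in the Aire gate. In the cortical gate it was at 286 in the Aire trace library, 241 and 290 in the isotype controls and 285, 263, 303 and 273 in the anti-RANKL libraries. In the Ccl21a gate it was at 129 to 207 with a median of 173, and in the Aire gate at 32.1, then 14.9 and 16.7, then 19.9, 27.5, 103 and 19.1. The cortical gate lay above the Ccl21a gate without overlap, and both lay above the Aire gate without overlap. The 103 of the Week 6 anti-RANKL library stood apart from the other Aire gates, and that gate also had the lowest summed markers of Aire-expressing mTECs, 12434.

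Trp63 was lower in the Aire gate than in the Ccl21a gate by 2.29 on the log2 scale (SE 0.21, limma adjusted p = 1.01e-10, 4.88-fold, 7 of 7 libraries). It was higher in the cortical than in the Aire gate by 2.94 (SE 0.21, limma adjusted p = 6.68e-13, 7.65-fold, 7 of 7 libraries). The cortical gate exceeded the Ccl21a gate in 7 of 7 libraries by 0.65 on the log2 scale, which did not pass the test (SE 0.21, limma adjusted p = 0.0531) until the Week 6 anti-RANKL library was left out (0.67, limma adjusted p = 0.0184, with a range from 0.00547 to 0.685 over 17 alternatives). At equal depth 171 of 447 cortical gate cells held a Trp63 UMI, 38.3% (33.7 to 42.9), against 28.1% in the Ccl21a gate and 3.70% (58 of 1569 cells) in the Aire gate, which is under the 9.49% that 0 of 37 immune cells allows. Before thinning the medians over libraries were 78.3%, 59.5% and 22.7%. As the second background, 10 of the 69 cells with Ptprc and a Cd3 gene held Trp63 at equal depth, 14.5% (7.17 to 25.0).

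The Trp63 level of the Krt10 gate, 104 to 386 with a median of 151, overlapped that of the Ccl21a gate and was higher than the Aire gate by 2.35 (SE 0.21, limma adjusted p = 5.28e-11, 7 of 7 libraries) and by 2.26 without the Week 4 and Week 6 anti-RANKL libraries (SE 0.16, limma adjusted p = 3.24e-11). The Trpm5 gate held 6.37 to 44.2 with a median of 23.2 and overlapped the Aire gate (log2 difference -0.22, 95% interval -0.63 to 0.19, limma adjusted p = 0.465).

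Pax1 and Pax9 are paired box factors of the pharyngeal pouches, and loss of either disturbs thymus development. Pax1 lies on chromosome 2 (chr2:147361925-147393295, plus strand) and Pax9 on chromosome 12 (chr12:56691767-56712822, plus strand). Their RefSeq promoter windows are shown because both were lower in the Aire gate, unlike the genes printed above.
Pax1 chr2:147364744-147365043 plus strand: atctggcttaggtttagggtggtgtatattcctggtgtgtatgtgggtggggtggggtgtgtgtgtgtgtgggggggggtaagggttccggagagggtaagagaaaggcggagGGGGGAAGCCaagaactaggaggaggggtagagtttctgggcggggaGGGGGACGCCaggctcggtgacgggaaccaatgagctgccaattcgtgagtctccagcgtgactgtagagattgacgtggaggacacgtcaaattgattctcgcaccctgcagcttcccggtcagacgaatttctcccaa
Pax9 chr12:56695221-56695520 plus strand: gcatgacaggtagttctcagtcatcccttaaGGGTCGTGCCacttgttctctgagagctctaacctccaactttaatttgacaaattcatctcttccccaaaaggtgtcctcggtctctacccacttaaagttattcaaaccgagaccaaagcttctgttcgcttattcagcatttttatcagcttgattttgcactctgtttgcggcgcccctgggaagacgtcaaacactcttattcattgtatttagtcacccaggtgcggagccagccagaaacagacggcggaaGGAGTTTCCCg
Each window held 2 matches to GGGNNNNNCC, at a GC content of 57.3% for Pax1 and 47.0% for Pax9. The AP-1 pattern TGACTCA, searched on both strands and present in 5.2% of all windows, had 0 matches in the windows of the 7 genes.

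Pax1 was the gene of the 8 that passed the test between the cortical and Ccl21a gates. Its cortical level was 372 in the Aire trace library, 363 and 539 in the isotype controls and 313, 358, 247 and 463 in the anti-RANKL libraries. Ccl21a gates held 98.8 to 166 with a median of 130, and did not overlap. The cortical gate was higher by 1.44 on the log2 scale (SE 0.34, limma adjusted p = 0.00682, 2.71-fold, 7 of 7 libraries, with limma adjusted p from 3.56e-05 to 0.0482 over 17 alternative fits). The Aire gate held 29.3 to 80.8 with a median of 49.9, lower than the Ccl21a gate by 1.28 (SE 0.34, limma adjusted p = 0.00488, 7 of 7 libraries) and 6.59-fold under the cortical gate (log2 difference of cortical minus Aire 2.72, SE 0.34, limma adjusted p = 3.8e-07). Detection at equal depth was 46.8% in the cortical gate (209 of 447 cells), 21.8% in the Ccl21a gate and 7.71% in the Aire gate, with medians over libraries of 86.6%, 58.3% and 32.4% before thinning. As background, 0 of 37 immune cells held Pax1, which allows up to 9.49%, and 10 of the 69 cells with Ptprc and a Cd3 gene did, 14.5% (7.17 to 25.0). The share of the Aire gate cannot be told from either background, nor that of the Ccl21a gate from the second. The level of Pax1, on few cells per library, reached 14.7 CPM in the first background, below every Aire gate, and 236 in the second.

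In the Krt10 gate Pax1 was at 275 and 279 in the Week 4 and Week 6 anti-RANKL libraries, the 2 whose Krt10 gate carried cortical markers, and at 19.2 to 109 in the other 5. The difference from the Aire gate was 0.66 with all libraries (SE 0.34, limma adjusted p = 0.152) and 0.14 without the 2 (SE 0.27, limma adjusted p = 0.724), and the limma adjusted p ran from 0.0065 to 0.724 over 17 alternatives. The Trpm5 gate held 27.4 to 152 with a median of 75.4 and did not pass the test against the Aire gate (log2 difference 0.49, 95% interval -0.18 to 1.16, limma adjusted p = 0.294).

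Pax9, like Pax1, was lower in the Aire gate than in the cortical and Ccl21a gates, with smaller differences. Unlike Pax1, Pax9 did not separate the cortical from the Ccl21a gate. Its level was 57.0 to 100.3 with a median of 83.3 in the cortical gate, 65.4 to 79.1 with a median of 72.1 in the Ccl21a gate and 22.4 to 66.9 with a median of 42.7 in the Aire gate. Cortical and Ccl21a gates overlapped throughout (log2 difference 0.10, 95% interval -0.33 to 0.53, limma adjusted p = 0.94). The Aire gate was lower than the Ccl21a gate by 0.61 (SE 0.22, limma adjusted p = 0.0329, 6 of 7 libraries), a call lost in 4 fits without 1 library, those without the Aire trace library (0.0634), the Week 2 isotype control (0.104), the Week 6 anti-RANKL library (0.0856) or the Week 10 anti-RANKL library (0.0758), and with thinned levels (0.187), with a range of the limma adjusted p from 0.00168 to 0.187 over 17 alternatives. The cortical gate was higher than the Aire gate by 0.71 (SE 0.22, limma adjusted p = 0.0104, 6 of 7 libraries). Detection at equal depth was 16.6% in the cortical gate, 12.2% in the Ccl21a gate and 6.69% in the Aire gate. Before thinning the median share over libraries was 37.2%, 36.9% and 38.9%, which differ less than the shares at equal depth. The intervals at equal depth overlap between the cortical gate (13.2 to 20.3) and the Ccl21a gate (upper bound 13.5), and 1 of 37 immune cells held Pax9, an interval that reaches 14.2%. The exception in both comparisons was the Week 4 anti-RANKL library, with its 18 Aire gate cells at 66.9.

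Pax9 in the Krt10 gate was at 37.2 to 149 with a median of 65.3, higher than in the Aire gate by 0.59 (SE 0.22, limma adjusted p = 0.0357, 6 of 7 libraries). Without the Week 4 and Week 6 anti-RANKL libraries the log2 difference was 0.58 with a limma adjusted p of 0.0527, and with stricter gates it was -0.20 with a limma adjusted p of 0.618. The call was also lost without the Aire trace library (adjusted p = 0.104 by limma), the Week 10 isotype control (0.167) or the Week 6 anti-RANKL library (0.109), with thinned levels (0.293), with at least 20 cells per profile (0.484) and with Ptprc and Cd3 genes at 0 (0.0986), and it ran from 0.000848 to 0.618 over 17 alternatives.

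Hoxa3, the homeobox factor needed for the third pouch to form a thymus (chr6:52169062-52213336, minus strand), had a mean of 7.67 CPM over the profiles, under the filter, and was not tested. In the Ccl21a gate its level was 9.20 in the Aire trace library, 8.94 and 13.2 in the isotype controls and 14.5, 14.2, 14.7 and 7.94 in the anti-RANKL libraries. In the cortical gate it was 3.82, then 10.7 and 23.7, then 14.9, 11.8, 0 and 14.1. In the Aire gate it was at 0 to 6.27 with a median of 0.738, below the Ccl21a gate in every library. At equal depth 2.60% of Ccl21a gate cells, 1.34% of cortical gate cells and 0.127% of Aire gate cells (2 of 1569) held a Hoxa3 UMI. All these shares lie under the 9.49% that 0 of 37 immune cells allows, so that they cannot be told from background. The level of Hoxa3, on few cells per library, reached 5.67 CPM in the immune cells and 6.63 in cells with Ptprc and a Cd3 gene. Both lie below every Ccl21a gate. Its RefSeq window, with 0 matches to GGGNNNNNCC, is not printed.

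Ehf (chr2:103263433-103303278, minus strand) and Elf3 (chr1:135253575-135258568, minus strand) are ETS family factors of differentiated and glandular epithelia. The Elf3 window is shown as the only one of the 7 genes that held the octamer ATGCAAAT, the sequence recognised by POU factors such as the tuft cell regulator POU2F3. The octamer was present in 1.74% of all windows and is in lower case here, since capitals again mark GGGNNNNNCC, with 3 matches.
Elf3 chr1:135258423-135258722 minus strand: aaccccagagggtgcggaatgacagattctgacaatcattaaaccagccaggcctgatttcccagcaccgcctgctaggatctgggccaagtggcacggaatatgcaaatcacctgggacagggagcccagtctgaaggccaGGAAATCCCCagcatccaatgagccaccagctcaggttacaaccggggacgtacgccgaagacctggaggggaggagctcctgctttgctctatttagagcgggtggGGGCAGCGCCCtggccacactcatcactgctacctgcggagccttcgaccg
The ETS core GGAA was present in 96.0% of all windows and separates nothing at this length.

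Both ETS genes had their highest level in the Trpm5 gate. Elf3 was there at 344 CPM in the Aire trace library, 170 and 281 in the isotype controls and 369, 506, 215 and 235 in the anti-RANKL libraries, and in the Aire gate at 19.1 to 46.5. The Trpm5 gate lay above all other gates without overlap. The difference from the Aire gate was 2.77 on the log2 scale (SE 0.23, limma adjusted p = 5.34e-12, 6.81-fold, 7 of 7 libraries). Ehf was in the Trpm5 gate at 350 in the Aire trace library, 240 and 311 in the isotype controls and 257, 316, 124 and 246 in the anti-RANKL libraries, higher than in the Aire gate (26.5 to 43.9) by 2.60 (SE 0.32, limma adjusted p = 3.71e-08, 6.04-fold, 7 of 7 libraries). At equal depth 39.9% of Trpm5 gate cells held an Elf3 UMI (119 of 298) and 36.2% an Ehf UMI (108 of 298), against 3.80% and 2.01% in the cortical gate. Among the 37 immune cells, 0 held Elf3 and 3 held Ehf, which allow up to 9.49% and 21.9%. By these bounds the shares of the cortical gate cannot be told from background. The bound of Ehf is not a clean measure of free RNA. Over the libraries, summed tuft markers in the immune cells had a median of 49.9 CPM but reached 3548. The level of Ehf in these cells had a median of 0 but reached 443. Before thinning the median over libraries was 75.8% for Elf3 and 77.2% for Ehf in the Trpm5 gate.

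Neither gene separated the Aire from the Ccl21a gate. The log2 difference was 0.01 for Ehf (95% interval -0.61 to 0.63, limma adjusted p = 0.986) and 0.07 for Elf3 (95% interval -0.39 to 0.53, limma adjusted p = 0.871). Ehf had its lowest median in the cortical gate, 12.3 in a range of 0 to 27.7, lower than in the Aire gate by 1.00 (SE 0.32, limma adjusted p = 0.0133, 7 of 7 libraries). This call was lost with a pseudocount of 100 (adjusted p = 0.137 by limma), with no library block (0.0627) and with cells of more than 1 gate kept (0.311), the highest of 17 alternatives. Against the Ccl21a gate it was below in 7 of 7 libraries with a log2 difference of -0.99 that did not pass the test (SE 0.32, limma adjusted p = 0.0537), and without the Week 6 anti-RANKL library the value was -0.87 with a limma adjusted p of 0.0495, which ran from 0.00104 to 0.798 over 17 alternatives.

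The Krt10 gate divided Ehf by library. Its level was 164 in the Aire trace library, 127 and 117 in the isotype controls, 84.7 and 93.4 in the anti-RANKL libraries of weeks 2 and 10, and 9.68 and 0 in those of weeks 4 and 6. The first 5 lay above every Aire gate and the last 2 below every Aire gate. The difference from the Aire gate was 0.62 with all libraries (SE 0.32, limma adjusted p = 0.142) and 1.47 without the 2 (SE 0.19, limma adjusted p = 6.93e-07, the lowest of 17 alternatives, which reached 0.753). Elf3 was higher in the Krt10 gate by 0.71 (SE 0.23, limma adjusted p = 0.0178, 6 of 7 libraries) and by 0.96 without the 2 (SE 0.22, limma adjusted p = 0.00116), while its call was lost without the Aire trace library (0.0672), the Week 10 isotype control (0.0701) or the Week 2 anti-RANKL library (0.0648), with thinned levels (0.232) and with at least 20 cells per profile (0.283), within a range from 0.000558 to 0.283 over 17 alternatives.

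The genes were also followed along the level of Aire itself, in 5159 cells with Aire at 0, 1292 with Aire above 0 to 1.5 and 1769 with Aire above 1.5. At equal depth the median share over the libraries went up along Aire for Fezf2, from 24.9% to 48.1% and 61.8%. It went down for Trp63, from 26.4% to 15.6% and 6.45%, and for Pax1, from 25.2% to 14.8% and 9.68%. In the same order Irf8 was at 17.2%, 31.7% and 38.9%, Foxn1 at 6.89%, 9.94% and 13.5%, Pax9 at 12.0%, 8.65% and 7.46%, Ehf at 8.24%, 8.76% and 7.46%, and Elf3 at 11.6%, 9.47% and 7.47%. The shares of Fezf2 ranged over libraries from 18.8% to 28.1% at Aire 0, from 34.8% to 60.0% in between and from 47.5% to 77.4% above 1.5, so the last 2 ranges overlap. No test was made of these shares, and cells of a library are not replicates. The first shares of Trp63 and Pax1 lie above both backgrounds. Their later shares do not lie above the second (7.17 to 25.0 for each gene), and the last of Trp63 is also under the 9.49% of the first. No order is therefore read among their later shares. The first share of Fezf2 lies within its second background (11.6 to 31.7), and its later shares lie above both. The shares of Foxn1 and Pax9 lie under the 14.2% and the last 2 of Elf3 under the 9.49% that the immune cells allow as background, so that no order is read from them. For Irf8 and Ehf the immune cells are no clean measure of free RNA. They held Irf8 at a median of 143 CPM over libraries, and their summed tuft markers reached 3548. This background cannot decide about these genes, and no order is read from their shares either.

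**Figure D3:**
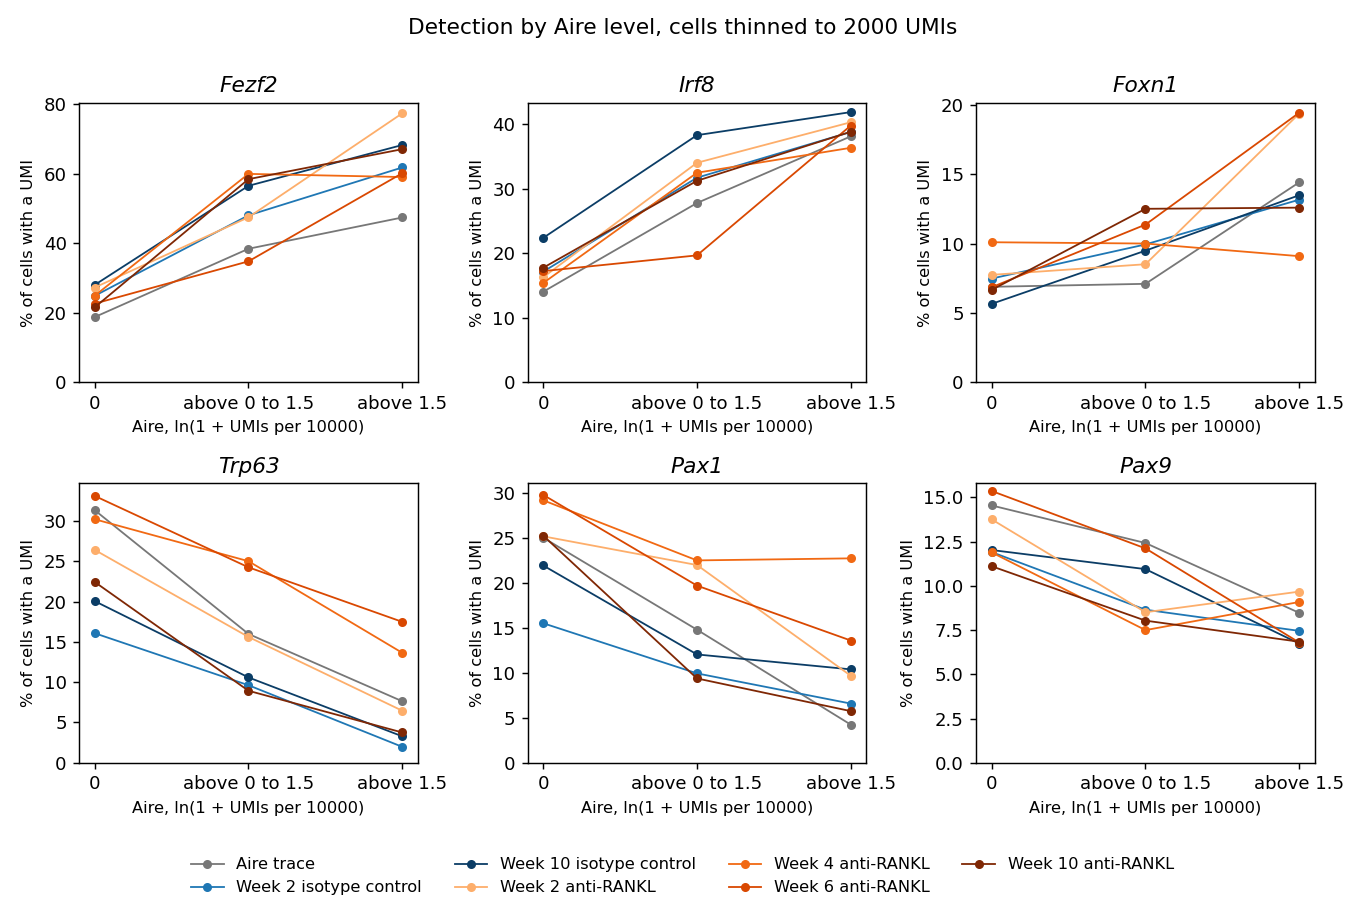
Share of cells with a UMI in percent (y axis), after thinning to 2000 UMIs, by Aire level (x axis, natural log of 1 + UMIs per 10000), with 1 line per library. The medians of Fezf2 go from 24.9% to 61.8% and those of Trp63 from 26.4% to 6.45% between Aire at 0 and Aire above 1.5.

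In the Aire trace library a ZsGreen UMI was taken as the mark of a history of Aire. No background share of ZsGreen is given here, so that free ZsGreen RNA among the marked cells was not measured. Among the cells of this library with Aire at 0, 413 held ZsGreen and 618 did not. Elf3 was found in 12.1% of the marked cells (9.12 to 15.6) and 5.50% of the unmarked (3.84 to 7.60), intervals that do not overlap. With cells holding a Trpm5 UMI left out, a choice made after seeing the data that kept 374 marked and 598 unmarked cells, Elf3 was found in 8.82% (6.15 to 12.2) and 5.02% (3.41 to 7.08), intervals that overlap, and both shares lie under the 9.49% of the immune background. Over all cells with Aire at 0, Ehf was found in 10.9% (8.06 to 14.3) against 6.47% (4.66 to 8.71), and Fezf2 in 22.5% (18.6 to 26.9) against 16.3% (13.5 to 19.5), with intervals that overlap. Both Ehf shares lie under the 21.9% that the immune cells allow, which for Ehf is not a clean measure of free RNA. Trp63 was found in 29.1% against 32.8%, Pax1 in 23.5% against 26.1% and Irf8 in 15.3% against 13.3%. These values compare cells of 1 library and have no replicate check. Within the Trpm5 gate of this library, Trp63 was found in 4 of 33 marked and 1 of 10 unmarked cells, too few to set apart.

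Over all cells with Ptprc at 0, the levels after RANKL blockade were set beside the 2 isotype controls. Of the 8 genes with a mean of at least 10 CPM there, 2 lay below both controls at weeks 2, 4 and 6 (Fezf2 and Irf8), as did 26.2% of 8734 genes, and 3 lay above both (Trp63, Pax1 and Pax9), as did 30.2%. Ehf was outside on both sides, above at week 2 and below at weeks 4 and 6, which brings the genes outside the controls to 6 of 8, beside 69.4% of all genes. These shares are near those of all genes, and the levels that follow are a description. Fezf2 was at 475 and 570 CPM in the controls (mean 522, SD 67.2, n = 2) and at 266, 192, 218 and 459 in the anti-RANKL libraries of weeks 2, 4, 6 and 10, which is 0.509, 0.367, 0.418 and 0.880 of the control mean. Irf8 was at 225 and 267 in the controls (mean 246, SD 29.9, n = 2) and at 132, 86.3, 126 and 225 after anti-RANKL. Both were lowest at week 4 and nearest the controls at week 10. In contrast, Trp63, Pax1 and Pax9 were above both controls at weeks 2, 4 and 6. Trp63 was at 51.0 and 68.5 in the controls (mean 59.8, SD 12.4, n = 2) and at 156, 195, 201 and 88.3 after anti-RANKL, or 2.61, 3.26, 3.37 and 1.48 times the control mean. Pax1 was at 69.0 and 104 in the controls and at 158, 185, 150 and 101 after anti-RANKL, the last between the controls. Pax9 was at 47.0 and 53.9 in the controls and at 76.0, 70.5, 64.4 and 51.4 after anti-RANKL, again between the controls at week 10. Hoxa3, under the filter, was at 2.56 and 4.49 in the controls and at 11.5, 15.0, 9.15 and 3.67 after anti-RANKL, the last between the controls.

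The same libraries differed in the mix of cells. The Aire gate held 36.2% and 41.1% of cells with Ptprc at 0 in the isotype controls and 3.72%, 1.24%, 10.0% and 35.1% in the anti-RANKL libraries of weeks 2, 4, 6 and 10, while the Ccl21a gate held 12.2% and 13.5% against 43.4%, 54.4%, 36.6% and 17.1%. A level over all cells cannot separate fewer cells of a type from less RNA per cell. The Aire trace library, from mice given no antibody, had 7.97% of its cells in the Aire gate and 57.1% in the Ccl21a gate, and its levels over all cells (Fezf2 174, Irf8 122, Trp63 176) lay closer to the anti-RANKL libraries of weeks 2, 4 and 6 than to the isotype controls.

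Within gates, some genes kept their place beside the controls and others did not. In the Aire gate, Fezf2 was at 692 and 834 in the controls and at 889 and 837 at weeks 2 and 4 of anti-RANKL, above both, at 562 at week 6, below both, and at 725 at week 10, between them. Irf8 was at 273 and 307 in the controls and at 361, 230, 234 and 306 after anti-RANKL, above, below, below and between. Trp63 was above both controls (14.9 and 16.7) in each of the 4 anti-RANKL libraries, at 19.9, 27.5, 103 and 19.1, or 1.26, 1.74, 6.54 and 1.21 times the control mean, as were 4.16% of all genes there. Over all libraries its share in this gate, 3.70%, lies under the 9.49% that the immune cells allow. The part of free RNA in these levels was not tested. The Aire gates of weeks 2, 4 and 6 held 44, 18 and 72 cells.

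Within the Ccl21a gate, Trp63 was at 129 and 148 in the controls and at 173, 170, 206 and 191 after anti-RANKL, above both throughout, as were 8.93% of all genes there. Foxn1 was there at 28.7 and 23.5 in the controls and at 50.9, 53.9, 48.7 and 27.3 after anti-RANKL, 1.95, 2.07, 1.86 and 1.04 times the control mean of 26.1 (SD 3.64, n = 2). Hoxa3 too lay above both controls there at weeks 2, 4 and 6. No share of all genes is given for these weeks in this gate, so that the levels are a description. Over all cells Foxn1 lay between the controls at all 4 weeks (50.7 and 59.6 against 52.6, 53.1, 51.1 and 53.0). Ehf lay below both controls in the Ccl21a gate at every week, with 35.6, 23.3, 22.4 and 39.6 against a control mean of 43.2 (SD 2.06, n = 2), and Pax9 too, with 72.1, 65.4, 65.9 and 66.2 against 74.0 (SD 1.74, n = 2), as did 10.8% of all genes there. The libraries of weeks 4 and 6 were the shallowest, and the part of depth in these levels was not tested.

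Other gates were mixed. In the Trpm5 gate Fezf2 was below both controls (mean 171, SD 21.3, n = 2) at every week, with 113, 50.7, 69.0 and 131, as were 6.62% of all genes there. The Fezf2 share of this gate is not read as expression above, and the part of free RNA in these levels was not tested. In the cortical gate Pax1 was at 313, 358, 247 and 463 against 363 and 539 in the controls, below both at weeks 2, 4 and 6, as were 13.9% of all genes there. Elf3 in the Aire gate was at 27.3, 35.0, 19.1 and 31.4, below both controls at every week (mean 41.8, SD 6.66, n = 2), as were 7.3% of all genes there. At equal depth its share in this gate, 6.88%, lies under the 9.49% that the immune cells allow. Over all cells Ehf and Elf3 were below both controls at weeks 4 and 6, as were 35.1% of all genes, Ehf with 31.8 and 17.7 against 56.1 and 40.6, and Elf3 with 38.0 and 30.1 against 76.1 and 53.1.

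**Figure D4:**
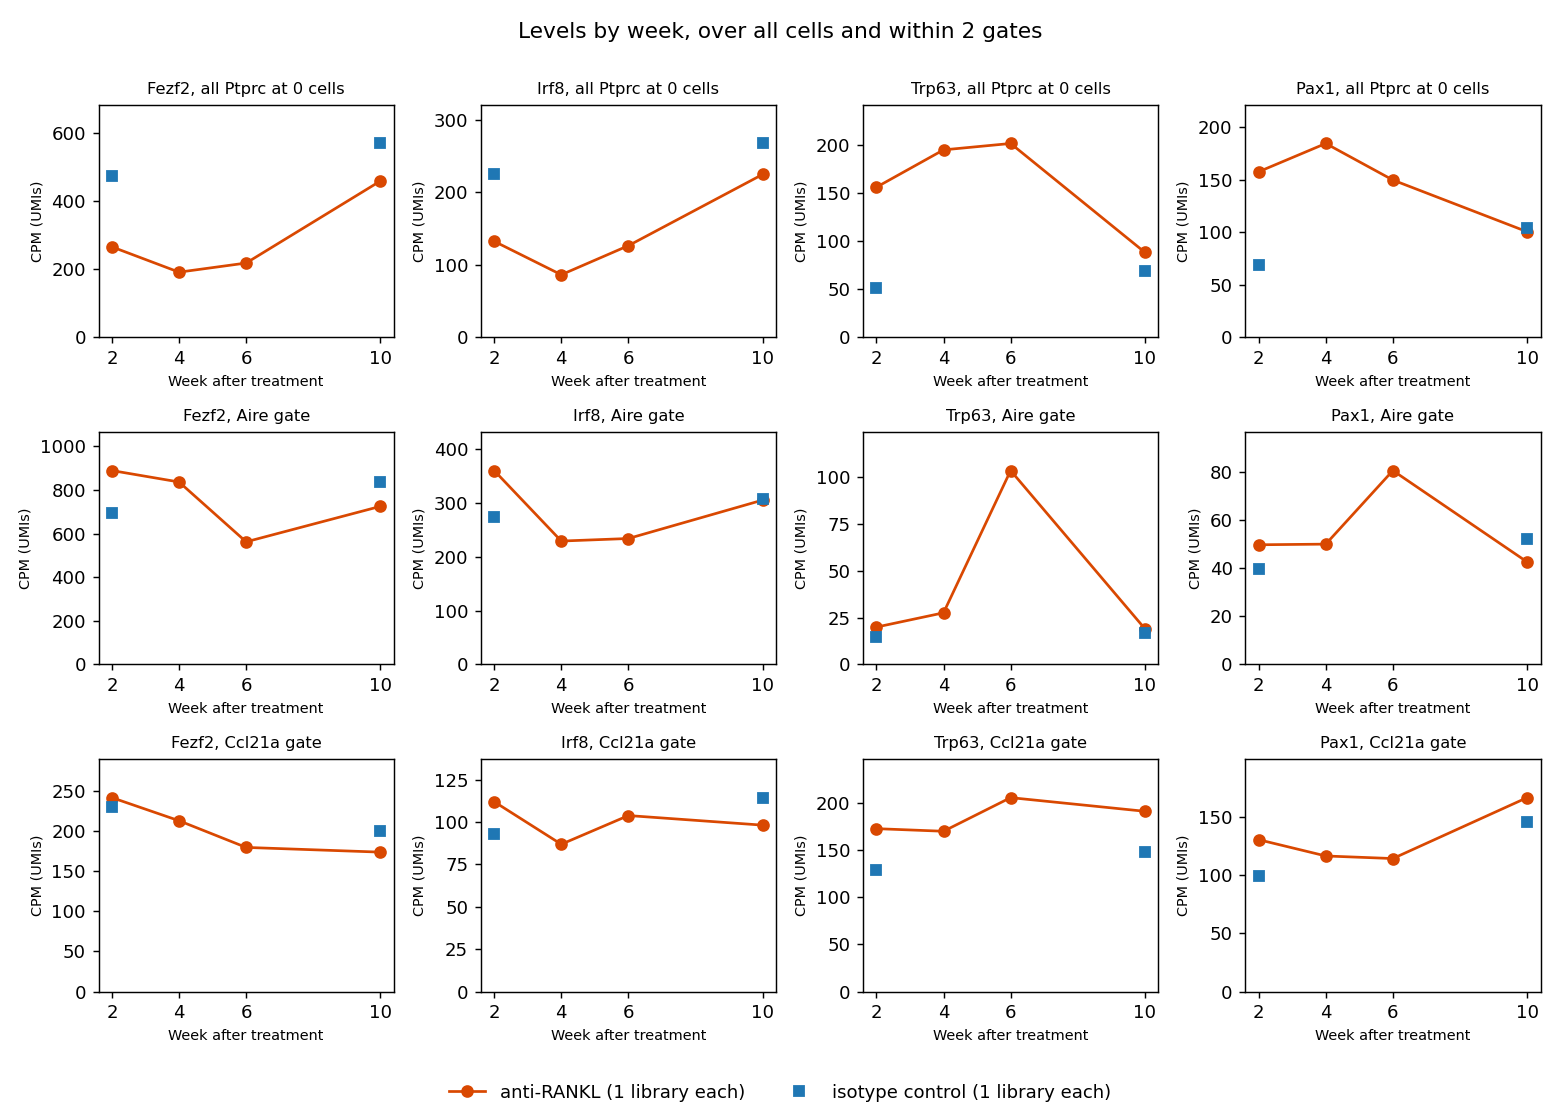
Level in CPM (y axis) of Fezf2, Irf8, Trp63 and Pax1 by week after treatment (x axis), over all cells with Ptprc at 0 and within the Aire and Ccl21a gates, with circles for anti-RANKL and squares for isotype control libraries, 1 library each. Over all cells Fezf2 goes from 266 at week 2 to 192 at week 4 and 459 at week 10, while within the Aire gate the anti-RANKL values of 562 to 889 surround the controls.

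Combinations of the genes in single cells were counted at 2000 UMIs. A cell held on average 1.51 of the 9 genes in the Aire gate, 1.48 in the cortical gate and 1.28 in the Ccl21a gate, and none of them in 14.1%, 13.6% and 23.9% of cells. Irf8 was found in 42.3% of Aire gate cells with Fezf2 and 38.2% of those without. Ehf and Elf3 shared 46 of 298 Trpm5 gate cells, with Elf3 in 42.6% of cells with Ehf and 38.4% of those without. Trp63 and Pax1 shared 81 of 447 cortical gate cells, with Pax1 in 47.4% of cells with Trp63 and 46.4% of those without.

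Across the 35 profiles of library and gate, which share libraries, depth and gates, the log2 levels of Ehf and Elf3 had a Pearson correlation of 0.91, those of Fezf2 and Irf8 of 0.75, and those of Trp63 and Pax1 of 0.70. Fezf2 and Foxn1 were at 0.62, Trp63 and Ehf at -0.64 and Fezf2 and Pax1 at -0.58. Among all tested genes the profile most like Fezf2 was that of S100a14 (0.91), followed by Mrpl38 (0.90) and Tcaf2 (0.90), and the most like Irf8 were Stoml1 (0.84), Snx29 (0.82) and Gadd45b (0.80). Pax1 was most like Ndufa11, Ctf1 and the stromal chemokine gene Cxcl12 (0.91 each). Trp63 was most like Kazald1 (0.94), 4631405K08Rik (0.93) and Fam69a (0.92). For Foxn1 the first was Stx11 (0.80) and for Pax9 it was Zfp511 (0.71). Ehf was most like Stk38 (0.92), Elf3 (0.91) and Ctsc (0.91), and Elf3 was most like Clmn (0.93), Hpgds (0.92) and Spire2 (0.92). For Hoxa3, Gm15050 and Hdac11 came first with 0.82 each, on a mean of 7.67 CPM.

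**Figure D5:**
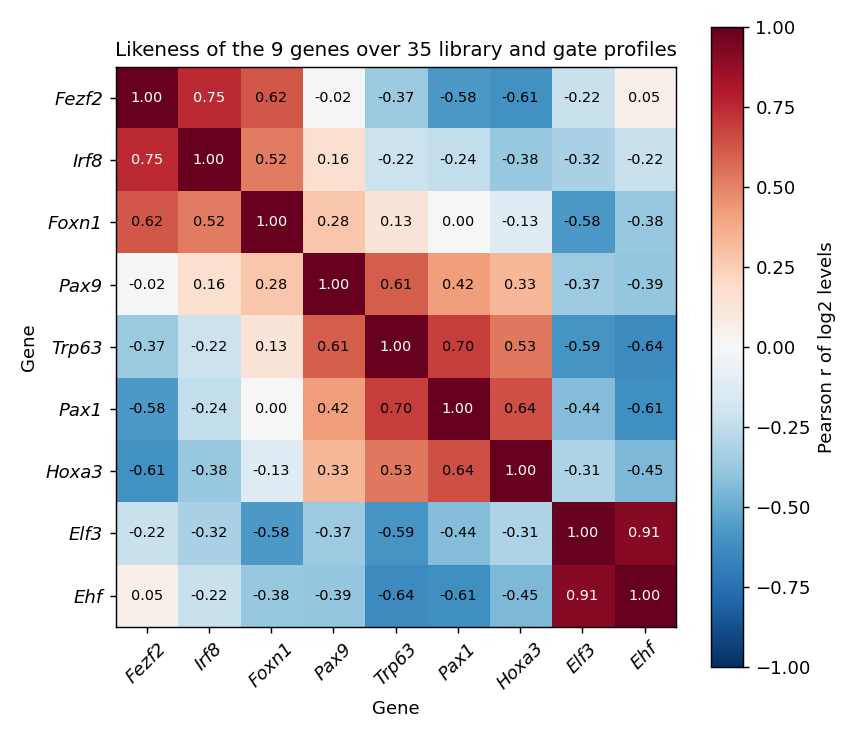
Pearson correlation of log2 levels between the 9 genes (both axes, gene names) over 35 profiles of library and gate, in red for positive and blue for negative values. Ehf and Elf3 (0.91) and Fezf2 and Irf8 (0.75) are the most alike, and Trp63 and Ehf (-0.64) the least.

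Other transcription factors of TECs were measured between the same gates. Of 27 listed, 24 were tested. In the Aire gate 7 were higher and 11 lower than in the Ccl21a gate (median log2 difference -0.41), beside 12.6% and 15.1% of all genes. Among them Irf4 was higher by 1.60 on the log2 scale (SE 0.28, limma adjusted p = 3e-05), and the NF-kappaB subunit genes Relb and Nfkb2 by 1.00 (SE 0.21) and 0.99 (SE 0.28), while Irf7 was lower by 2.40 (SE 0.21) and Id1, an inhibitor of basic helix-loop-helix factors, by 3.53 (SE 0.33). In the Trpm5 gate 8 were higher and 4 lower than in the Aire gate (median -0.09, beside 20.1% and 13.2% of all genes), with the tuft cell regulator Pou2f3, also a marker on the tuft list, higher by 2.99 (SE 0.31) and Cited2 by 3.44 (SE 0.25). In the Krt10 gate 11 were higher and 8 lower than in the Aire gate (median 0.74, beside 14.8% and 16.7%), with Grhl1, a factor of the epidermal barrier, higher by 2.31 (SE 0.39) and Gata3 by 1.78 (SE 0.31). Without the Week 4 and Week 6 anti-RANKL libraries, 12 of 25 were higher and 6 lower (median 0.58, beside 19.8% and 19.0%), with Grhl1 higher by 3.38 (SE 0.20) and Gata3 by 2.27 (SE 0.23). In the cortical gate 0 were higher and 6 lower than in the Ccl21a gate by limma (median -0.28, beside 3.29% and 3.23% of all genes; 1 and 8 at an unadjusted p under 0.05), and 8 were higher and 6 lower than in the Aire gate (median 0.18, beside 19.9% and 13.2%).

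Family relatives of the 9 genes were measured from a list of 28, of which 13 passed the filter. In the Aire gate 3 were higher and 4 lower than in the Ccl21a gate (median log2 difference -0.26, beside the same 12.6% and 15.1% of all genes), among them Irf5, higher by 2.25 (SE 0.27, limma adjusted p = 3.34e-08), and Irf9, lower by 1.53. The counts higher and lower were 5 and 3 for Trpm5 minus Aire (median 0.20), 3 and 4 for Krt10 minus Aire (-0.07; 4 and 3 with a median of 0.03 without the Week 4 and Week 6 anti-RANKL libraries), 0 and 1 for cortical minus Ccl21a (-0.25, with 1 and 5 at an unadjusted limma p under 0.05) and 3 and 3 for cortical minus Aire (-0.07). The shares of all genes in these comparisons are those given for the other transcription factors.

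Genes that depend on FOXN1 were taken as a list of 6, of which 5 were tested and 4 are also on the list of cortical markers. The cortical gate takes cells by cortical genes, so that counts of this list in it are not independent of the gate. In the cortical gate 4 were higher and 0 lower than in the Ccl21a gate (median log2 difference 2.23, beside 3.29% and 3.23% of all genes): the chemokine genes Ccl25, by 3.81 (SE 0.51, limma adjusted p = 1.24e-05), and Cxcl12, by 2.91 (SE 0.47), with Cd83 by 2.23 (SE 0.27) and Kitl by 1.92 (SE 0.34). Foxn1 itself differed there by 0.48, with a 95% interval of -0.11 to 1.07 (limma adjusted p = 0.5). In the Aire gate 2 were higher than in the Ccl21a gate, Ccl25 by 3.51 (SE 0.51) and Cd83 by 1.80 (SE 0.27), and 2 were lower, Ctsl by 3.39 (SE 0.40) and Cxcl12 by 2.30 (SE 0.47), for a median of 0.09. For Trpm5 minus Aire 0 were higher and 2 lower (median -0.35), for Krt10 minus Aire 2 and 2 (0.67), and for cortical minus Aire 3 and 0 (1.83), on a list of 5 tested genes and beside the shares of all genes already given for these comparisons. The 2 higher in the Krt10 gate were Cxcl12, by 1.96 (SE 0.47), and Ctsl, by 1.41 (SE 0.40), and without the Week 4 and Week 6 anti-RANKL libraries, whose Krt10 gate carried cortical markers, the counts were again 2 and 2, with Cxcl12 higher by 1.63 (SE 0.40) and Ctsl by 1.09 (SE 0.29). The counts of 0 in this list were also 0 at an unadjusted limma p under 0.05.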

How the data were processed

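The deposited values of each cell are the natural log of 1 + UMIs per 10000, made by the authors with Cell Ranger 2.2.0 and Seurat 2.3.4 on mm10 according to the submitters' processing notes. Whole UMIs were recovered from these log values within 0.001. The 7 library tables were used, with totals of 3857876 to 22197691 UMIs, and the combined tables of several libraries were not. The 9 genes and all lists were chosen with earlier results of these data known. A profile is the mean CPM over at least 10 cells of a library and gate, 35 in all. limma 3.58.1 (R 4.3.3; lmFit, eBayes with trend and robust) was fitted to log2(profile + 10) for genes with a mean of at least 10, with library as a block and without the gate genes, Ptprc and the Ccl21a copies. Fold changes on this scale understate those of low genes. In its expression comparisons the study tested cells, which are not replicates, while its flow cytometry used replicates of pooled thymi. Here libraries of different treatments and ages serve as replicates, and p-values measure only the spread between these libraries. Doublets were not called, and cells of more than 1 gate were left out. Shares were counted after thinning to 2000 UMIs (numpy 2.4.6), with exact 95% intervals (scipy 1.17.1). The fit was also run on simulated data with known changes, and the outcome is not reported here. Named genes are the 9 genes, the fixed lists and the 3 genes most correlated with each gene. Of the immune marker lists, the summed level is reported for the myeloid and dendritic list, and that of a further list is not reported here.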

Additional observations from a re-analysis of the deposited data

How the results depend on the processing

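Of 680 member values from alternative fits, 614 kept their direction and their side of the threshold, 24 gained a call, 27 lost it and 15 turned direction. Against the Ccl21a gate, 3 of the 6 members called in the Aire gate were called with thinned levels. The cortical minus Ccl21a comparison called 1 member, but 2 with a pseudocount of 100, with cells of more than 1 gate kept or with Ptprc and Cd3 genes at 0, 3 with at least 20 cells per profile, 4 without the Week 4 and Week 6 anti-RANKL libraries together and 5 with stricter gates. Calls over all genes went from 6.52% to 14.0%, 9.31% and 13.8% in the last 3 fits. Without each library in turn the members called were 4 to 6 for Aire minus Ccl21a, 5 to 5 for Trpm5 minus Aire, 4 to 7 for Krt10 minus Aire, 1 to 3 for cortical minus Ccl21a and 6 to 6 for cortical minus Aire. The fit without those 2 libraries was chosen after seeing the data, and the cause of these changes was not tested.

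The values that turned direction were, for Ehf in Aire minus Ccl21a, -0.0926 with at least 20 cells, -0.0568 to 0.0869 without each library in turn (below 0 without the Aire trace, Week 4 or Week 6 anti-RANKL library) and -0.0993 without the last 2 together. For Trpm5 minus Aire, they were 0.47 (multiple gates kept), 0.0422 (thinned) and 0.019 (without the 2 libraries) for Trp63, and 0.0606 (multiple gates kept) and 0.0213 (thinned) for Pax9. For Krt10 minus Aire with stricter gates, they were -0.461 for Pax1 and -0.203 for Pax9. For cortical minus Ccl21a, they were 0.313 for Fezf2 and 0.0531 for Elf3 with multiple gates kept, and -0.115 for Irf8 with thinned levels. Of these, Pax9 in Krt10 minus Aire was the one called in the reported fit.

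Without a library block, Ehf in cortical minus Aire had a log2 difference of -0.998 (limma adjusted p = 0.0627, over a range from 7.47e-05 to 0.311). No paired analysis was possible by replicate number because the treated and control groups share fewer than 2 numbers, and a fit over the 2 weeks that have a control was not made. Against the control of the same week, Fezf2 over all cells was 0.560 times as high at week 2 and 0.806 times at week 10. Of 36 member shares over all cells in the 4 anti-RANKL libraries, 17 lay below the control mean, and 26 did with no thinning. Across all genes, calls for Aire minus Ccl21a, Trpm5 minus Aire, Krt10 minus Aire and cortical minus Aire numbered 2495, 2993, 2842 and 2987, against 4534, 4996, 5263 and 5193 with no filter and 1384, 1652, 1876 and 1745 with thinned levels. For cortical minus Ccl21a they numbered 587, against 249 with thinned levels, 367 with a pseudocount of 1, 1254 with at least 20 cells, 1249 with stricter gates and 372 without the Week 2 isotype control. Few UMIs limit Hoxa3, and few cells limit the Aire gates of 18 and 44 cells.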
